A study of Arachis hypogaea with 3 samples.

Results

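The flavonoid, anthocyanin and isoflavonoid pathway was followed through the transcripts of peanut gynophores, the stalks that carry the fertilised ovary into the soil. Its members were the sequences of the expression table whose annotation names chalcone, flavanone, flavonoid, flavonol, flavone, an anthocyanin or anthocyanidin, or an isoflavonoid, leaving out those that name stilbene or resveratrol. There were 163 such sequences among 83579, of which 75 were assembled unigenes and 88 public peanut sequences. A total of 158 had at least 1 read in some library, and 5 had none. By their annotation they fell into 34 steps: 27 sequences in the early steps, 9 in flavonol and flavone steps, 57 in the anthocyanin and proanthocyanidin branch, 52 in the isoflavonoid branch and 18 in steps that name flavonoids or chalcones without a branch.

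The samples were the tips of gynophores of the cultivar Luhua 14, grown on a farm, at 3 stages. S1 gynophores were aerial, green or purple in colour and 3 to 5 cm long. S2 gynophores were white, had spent about 3 days underground and had an ovary that was not visibly enlarged. S3 gynophores had grown in the dark and carried pods 2 to 3 mm long. Each stage had 1 library of poly(A) RNA and the libraries held 20734295 counted reads in all, of which S1 had 33.3%, S2 32.2% and S3 34.5%, so no difference below has a replicate check, and no p-value is given. Intervals are 95% exact intervals for counting error only (Poisson for a level, Clopper-Pearson for a ratio) and compare these libraries rather than the stages. In such bulk tissue, fewer cells of a type and less RNA per cell cannot be told apart.

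Flavonoids derive from 4-coumaroyl-CoA, which phenylalanine ammonia-lyase, cinnamate 4-hydroxylase and 4-coumarate CoA ligase supply. Chalcone synthase joins it with malonyl-CoA, chalcone isomerase closes the ring to a flavanone, and hydroxylases decorate it. Towards the anthocyanins, the red to purple pigments, dihydroflavonol reductase and anthocyanidin synthase make the coloured anthocyanidin, which 3-O-glycosyltransferases and acyltransferases stabilise, while anthocyanidin reductase diverts it to proanthocyanidins. Legumes also make isoflavonoids, known as defence compounds and as signals to soil microbes, by way of isoflavone synthase, a cytochrome P450 that moves the aryl ring, and hydroxyisoflavanone dehydratase.

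Levels are given in RPKM, the uniquely aligned reads per kilobase of sequence, scaled to the size of the library. A member is said to have risen or fallen when its RPKM + 1 differed at least 2 times between 2 libraries. A step is given by the sum of its members' RPM (reads per 1000000 counted reads), because several sequences can be pieces of 1 gene. Near-identical family members share reads that do not align uniquely, so single copies of the large families are uncertain in level. Names are those of the best database match and were not tested by function.

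All members together held 2690 RPM in S1 (2652 to 2729) and 2073 in S2 (2039 to 2108), with 1087 in S3 (1063 to 1111), which made the ratio of S3 to S1 0.404 (0.393 to 0.415). The early and the anthocyanin steps carried this decline: the early steps had 1030, 721 and 234.7 RPM in S1, S2 and S3. Those of the anthocyanin branch were 1178, 763.9 and 396.7. The isoflavonoid branch did not share it, with 253.4, 283.3 and 299.9 RPM. Its ratio of S3 to S1 was 1.18 (1.11 to 1.26). Rescaling the libraries multiplies that ratio by 0.875 (median of ratios) or 0.885 (upper quartile). This brings it below its interval and close to 1, though still above 1. The single sequence named isoflavonoid regulator, EZ744056.1, held 27.6, 47.65 and 75.8 RPM of the branch sums. Its gain between S1 and S3 was as large as that of the whole branch, so the other isoflavonoid members together did not gain. The ratio of S3 to S2 of the branch, 1.06 (0.994 to 1.13), went below 1 when rescaled (0.903 with the median of ratios and 0.892 with the upper quartile).

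**Figure D1:**
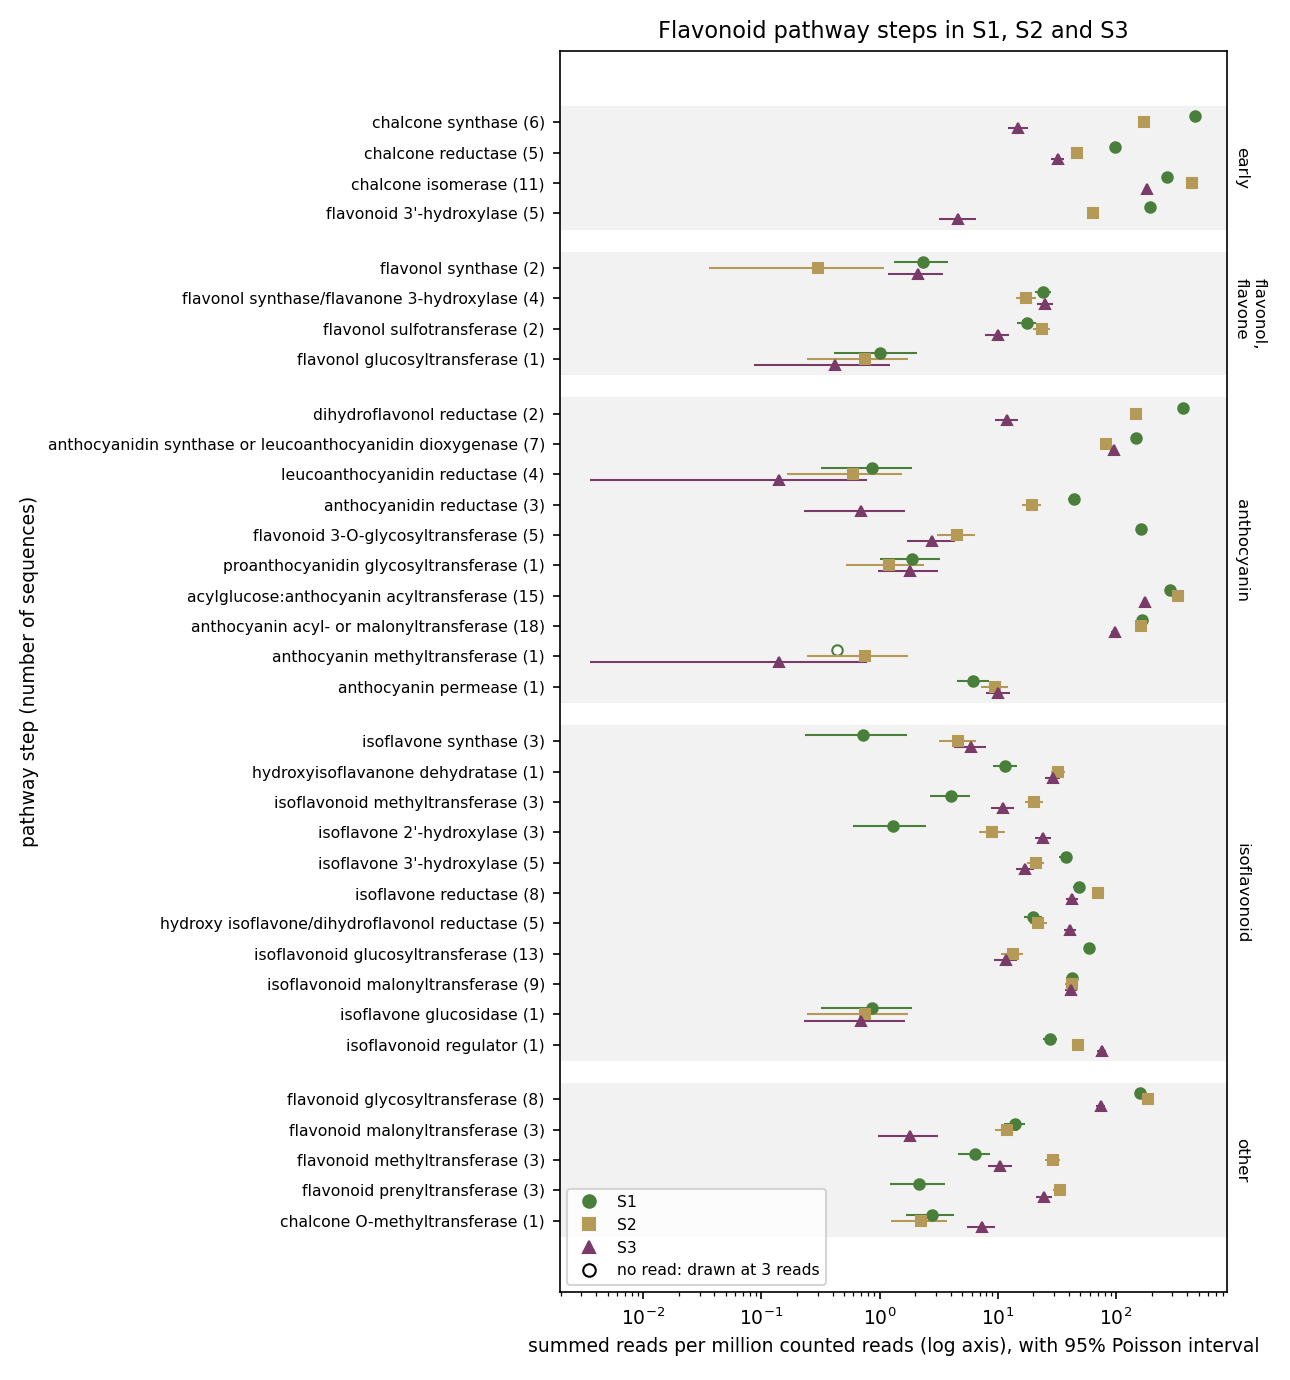
Summed RPM, or reads per 1000000 counted reads (x axis, log scale) of each pathway step (y axis, with its number of sequences, grouped by branch) in S1, S2 and S3. Points are single libraries, bars are 95% Poisson intervals, and an open symbol stands for 0 reads, drawn at 3 reads. Chalcone synthase, flavonoid 3'-hydroxylase, dihydroflavonol reductase, anthocyanidin reductase and the flavonoid 3-O-glycosyltransferases are lowest in S3, while isoflavone synthase and isoflavone 2'-hydroxylase are lowest in S1.

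Counted one by one, 40 of the 158 members rose and 23 fell in S2 against S1. Over all 81517 sequences with a read, 9.03% rose and 9.19% fell in that comparison, and the shares of members, 25.3% and 14.6%, lay above both. In S3 against S2, 14 members rose and 46 fell, against 18.6% and 11.4% of all sequences. In S3 against S1, 39 rose and 47 fell, against 21.0% and 13.9% of all sequences. These shares of all sequences are also the background for the counts by step below. As shares of the members, 8.86% rose and 29.1% fell in S3 against S2, and 24.7% rose and 29.7% fell in S3 against S1, so that the falls stood further above their background than the rises, which were below it in S3 against S2. The members had a median log2 ratio of 0.04 (S2 to S1), -0.41 (S3 to S2) and -0.22 (S3 to S1). Over all sequences it was 0.00, 0.18 and 0.16. Rescaling the libraries brought those last 2 medians to 0.00 for S3 to S2 and to between 0.00 and 0.01 for S3 to S1. Except where a rescaling is named, the members' changes below were not corrected for the shift of 0.18 and 0.16.

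The branches differed. In S3 against S1, 15 of 26 early members fell and 6 rose (median log2 ratio -1.42), 15 of 54 anthocyanin members fell and 10 rose (-0.30), and 8 of 52 isoflavonoid members fell and 17 rose (0.19). Of these shares, the 15.4% of isoflavonoid members that fell, the 18.5% of anthocyanin and 23.1% of early members that rose, and the isoflavonoid median, were close to the values over all sequences. In S2 against S1, 7 early members rose and 7 fell, and in the isoflavonoid branch 15 rose and 7 fell. Of the 158 members, 64 had their highest RPKM in S1, 58 in S2 and 36 in S3, that is 40.5%, 36.7% and 22.8%. Over all sequences the shares were 30.2%, 25% and 44.8%. In the group that names no branch, S2 was the highest stage of 13 of 18 members, or 72.2%.

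**Figure D2:**
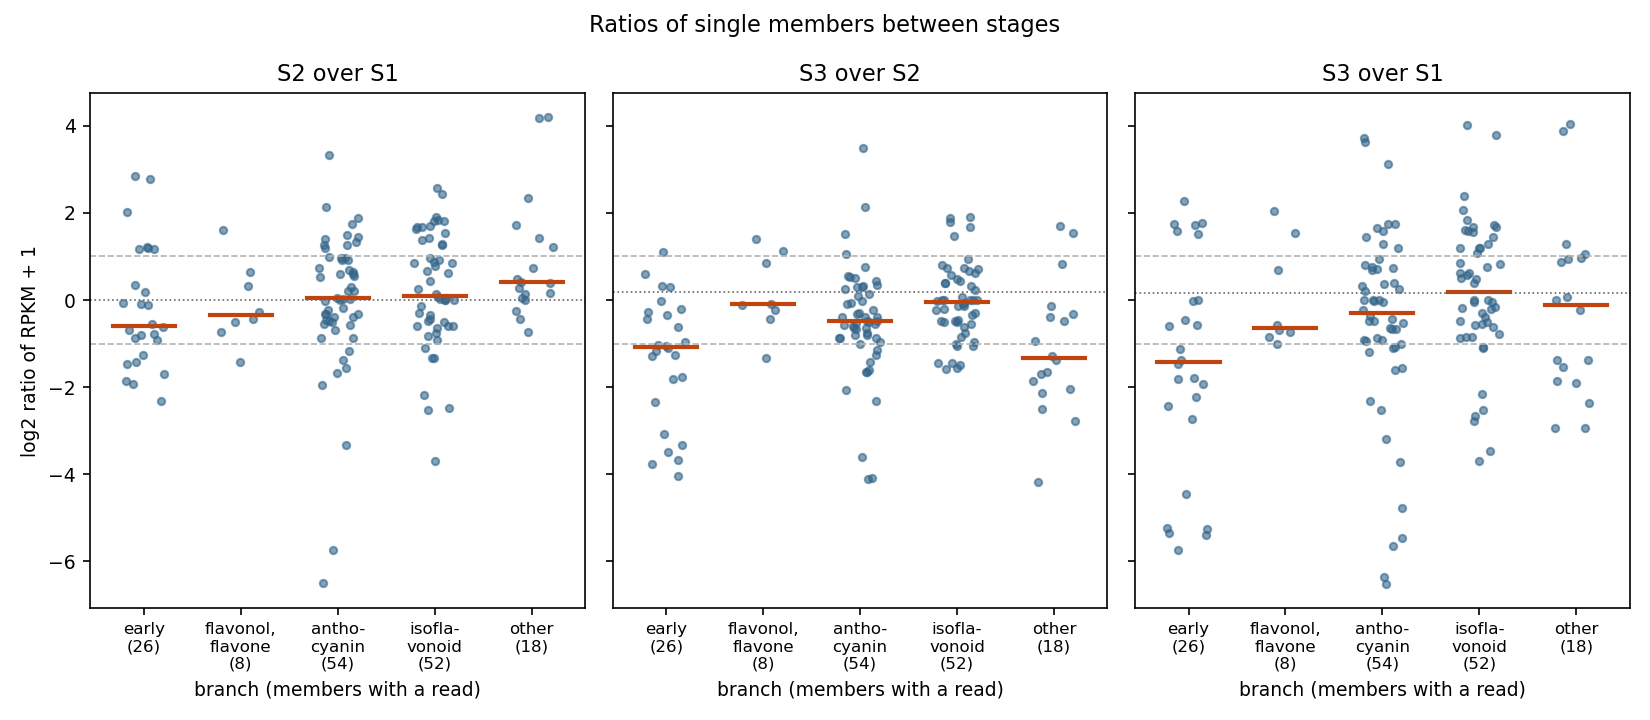
The log2 ratio of RPKM + 1 (y axis) of every member with a read, by branch (x axis), for S2 over S1, S3 over S2 and S3 over S1. Points are single sequences spread sideways for legibility, orange bars are branch medians, dashed lines mark 2-fold differences and the dotted line the median of all sequences. The early median lies at -1.42 for S3 over S1 and the isoflavonoid median at 0.19, and single members of both the early and the anthocyanin branch lie more than 5 log2 units down.

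The early steps began with chalcone synthase, the entry enzyme, whose summed RPM were 467.2 in S1, 171.7 in S2 and 14.83 in S3. S2 had 0.367 times the sum of S1 (0.343 to 0.393), and S3 had 0.0317 times (0.0259 to 0.0385). JK153418.1, annotated as a peanut chalcone synthase, led the step with an RPKM of 341.5 in S1 (323 to 361) and 123.4 in S2 (112 to 135.5), with 8.13 in S3 (5.53 to 11.6). It was the member with the highest RPKM of all in S1. Unigene16603, another peanut chalcone synthase, fell to an RPKM of 4.88 in S3, against 73.6 in S2, a ratio of 0.0663 (0.0423 to 0.0995). Between S2 and S1 its ratio was 0.573 (0.502 to 0.654), a smaller difference than that of JK153418.1, 0.361 (0.323 to 0.403).

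Chalcone synthase was not uniform. EZ726405.1 and EZ727127.1, both matched to a Senna tora enzyme, had an RPKM of 71.2 and 65.5 in S1, 18.8 and 16.3 in S2, and 0.771 and 0.736 in S3. GW982985.1, matched to peanut chalcone synthase as well, went the other way and was chosen for mention after its values were seen. Its RPKM was 2.05 in S1 (0.936 to 3.89) and 6.12 in S2 (4.001 to 8.97), with 7.70 in S3 (5.36 to 10.7), from 9, 26 and 35 reads. With S3 levels of 8.13 and 7.70, the leading S1 sequence and this minor one had overlapping intervals in S3.

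Chalcone reductase, which acts together with the synthase to give deoxychalcones in legumes, summed to 97.5, 46.8 and 32.2 RPM in S1, S2 and S3. Its main sequence EZ722975.1 had an RPKM of 63.0, 25.5 and 12.7, a ratio of S3 to S1 of 0.201 (0.165 to 0.244). A short sequence with the same name, Unigene45134, ran in the opposite direction with an RPKM of 6.58, 16.1 and 35.8. In S3 its interval of 27.5 to 45.9 lay above that of EZ722975.1, 10.6 to 15.0, so the leading chalcone reductase sequence changed between the stages. Of the 5 members, 3 rose and 2 fell in S3 against S1.

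Chalcone isomerase, the ring-closing enzyme, was highest in S2, with 270.4, 438.4 and 183.1 RPM in S1, S2 and S3. A pair of sequences matched to chalcone isomerase 2 of Pueraria accounted for the rise. EZ755568.1 had an RPKM of 20.7 in S1 (17.4 to 24.6) and 147 in S2 (138 to 157), with 71.0 in S3 (64.7 to 77.7). EZ755567.1 had 18.5, 139.5 and 57.8. Their ratios of S2 to S1 were 7.10 (5.91 to 8.58) and 7.55 (6.16 to 9.33), and both remained above S1 in S3, at 3.42 (2.82 to 4.18) and 3.13 (2.51 to 3.92) times. The pair was set apart after the values were seen. That no other isomerase rose against S1 therefore follows from the split. Among the 8 other isomerases with a read, none rose in S3 against S2. In S3 against S1, 5 of these 8 fell, against 13.9% of all sequences. Their summed RPM were 235.7, 184.9 and 68.8 in S1, S2 and S3, against 34.7, 253.5 and 114.3 for the Pueraria-like pair. EZ736569.1, matched to a putative chalcone isomerase 4, led them with an RPKM of 123 in S1, 79.3 in S2 and 34.5 in S3. Whether this sequence and those matched to a putative chalcone isomerase 3 close the ring was not tested.

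**Figure D3:**
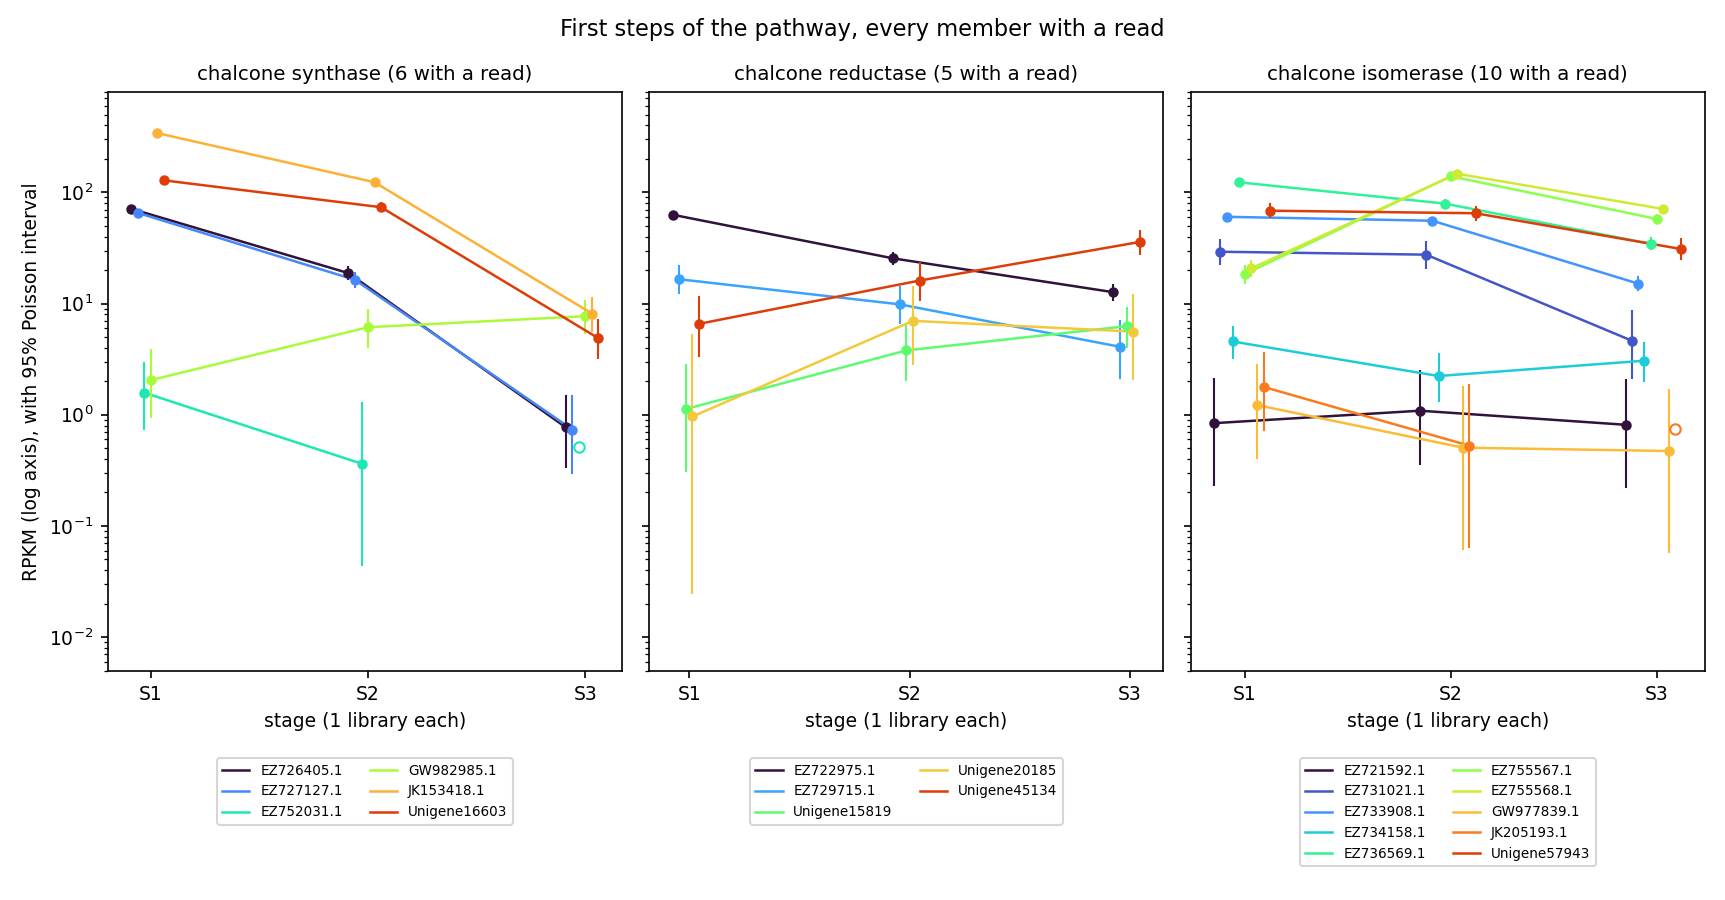
RPKM (y axis, log scale) by stage (x axis, 1 library each) of every chalcone synthase, chalcone reductase and chalcone isomerase sequence with a read. Points are single libraries with 95% Poisson intervals, lines join the stages of 1 sequence, and unjoined open circles stand for 0 reads, drawn at 3 reads. The 2 highest chalcone synthases end below 10 RPKM in S3, while the isomerases EZ755567.1 and EZ755568.1 peak at 139.5 and 147 in S2.

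Flavonoid 3'-hydroxylase, the cytochrome P450 that adds the second hydroxyl of the B ring, fell with the synthase. Its summed RPM were 194.3 in S1, 64.1 in S2 and 4.62 in S3, a ratio of S3 to S1 of 0.0238 (0.0163 to 0.0335). EZ721813.1 carried most of it, with an RPKM of 117 (110 to 124), 35.2 (31.3 to 39.4) and 1.19 (0.597 to 2.14). Its 1039, 302 and 11 reads covered 99.5%, 98.1% and 33.1% of its bases in S1, S2 and S3. Of the 5 members, 3 fell and none rose in S3 against S1. The step also includes 3 sequences annotated as putative flavonoid 3-hydroxylase. Of these, Unigene69978 peaked in S2, with an RPKM of 5.14, 13.1 and 3.15, Unigene3635 had 8, 2 and 0 reads, and JK165323.1 had 0, 1 and 0.

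The flavonol and flavone steps were few and low. The sequences named flavonol synthase/flavanone 3-hydroxylase summed to 24.0, 17.4 and 25.04 RPM in S1, S2 and S3, a ratio of S3 to S1 of 1.04 (0.839 to 1.29) that dropped to 0.913 and 0.923 under the 2 rescalings. JK183030.1 of this step nevertheless rose in S3, with an RPKM of 5.21, 8.62 and 24.4, while GW987596.1 had 33.6, 19.8 and 18.2. EZ731212.1, a flavonol synthase, had only 13, 1 and 7 reads. Flavonol sulfotransferase Unigene69146 fell to an RPKM of 10.8 in S3, against 28.8 in S2, and had 23.0 in S1. The putative flavonol glucosyltransferase AY029322.1 had 7, 5 and 3 reads.

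In the anthocyanin branch, dihydroflavonol reductase, 1 anthocyanidin synthase sequence and anthocyanidin reductase were lower in S2 than in S1 and lower again in S3. Dihydroflavonol reductase, which makes leucoanthocyanidin, had 367.1, 148.2 and 11.89 RPM in S1, S2 and S3. Unigene71925, matched to soybean DFR1, had an RPKM of 259 in S1 (249 to 269) and 99.4 in S2 (93.04 to 106), with 4.87 in S3 (3.58 to 6.48). S2 was at 0.384 times S1 (0.355 to 0.415), and S3 at 0.0490 times S2 (0.0357 to 0.0657). Anthocyanidin synthase Unigene71696, matched to soybean anthocyanidin synthase 2, had a ratio of S2 to S1 of 0.333 (0.290 to 0.381) and of S3 to S2 of 0.0324 (0.0154 to 0.0605), ending at 10 reads in S3. Anthocyanidin reductase, the proanthocyanidin enzyme, showed the same course in EZ725791.1, with an RPKM of 41.6, 17.8 and 0.555. Leucoanthocyanidin reductase, the other enzyme of that side branch, was hardly read at all, with 6, 4 and 1 reads over its 4 sequences.

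Read side by side, 5 leading sequences of separate steps had similar ratios. JK153418.1, EZ721813.1, Unigene71925, Unigene71696 and EZ725791.1 had ratios of S2 to S1 between 0.301 and 0.428 and ratios of S3 to S2 between 0.0311 and 0.0659. In ratio, S3 against S2 was thus the larger decline for each of the 5, while in RPKM more was lost between S1 and S2. They were chosen after their values were seen and leave out chalcone isomerase, whose leading sequence was highest in S2, and the flavanone 3-hydroxylase step, whose sum was lowest in S2. Their reads together made up 853.4 RPM in S1, 306.4 in S2 and 14.4 in S3.

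The flavonoid 3-O-glycosyltransferases, which attach the first sugar to anthocyanidins, had another timing. Their summed RPM were 163.2 in S1, 4.50 in S2 and 2.80 in S3. S2 reached 0.0275 times the sum of S1 (0.0185 to 0.0395), below that of every step just named, and S3 was at 0.622 times S2, with an interval that includes 1 (0.335 to 1.13). Unigene51169, matched to a glucosyltransferase of Clitoria ternatea, had 266, 3 and 1 reads and an RPKM of 136.5 (121 to 154), 1.59 (0.329 to 4.66) and 0.496 (0.0126 to 2.76). Unigene7144, matched to a flavonoid 3-O-galactosyl transferase of Vigna mungo like Unigene67415 and Unigene66739, had an RPKM of 46.0, 3.71 and 2.60. Unigene67415 had a ratio of S2 to S1 of 0.00469 (0.000964 to 0.0137), and on the RPKM + 1 scale no member had a smaller one. In all, 4 of the 5 members fell in S2 against S1, and none passed the limit in S3 against S2. In ratio, then, the larger decline of this step came between S1 and S2, while for the 5 sequences above it came between S2 and S3.

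**Figure D4:**
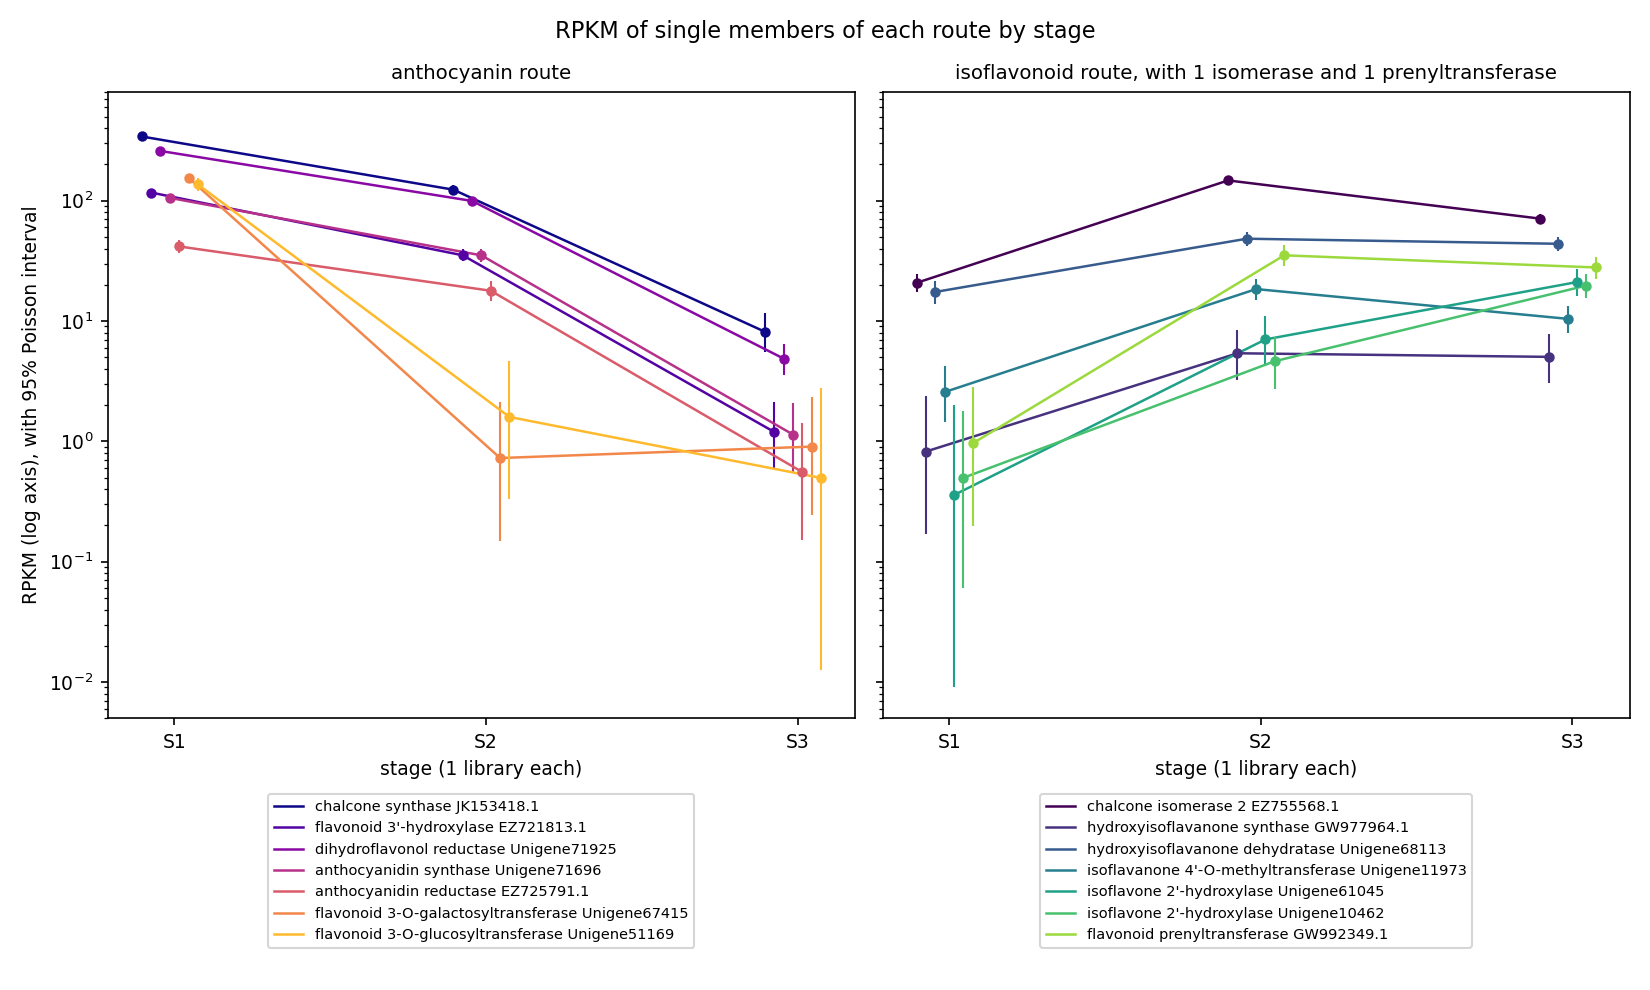
RPKM (y axis, log scale) by stage (x axis, 1 library each) of 7 sequences of the anthocyanin route (left) and of 7 sequences with higher levels in the soil, mainly of the isoflavonoid route (right). Points are single libraries with 95% Poisson intervals. On the left the glycosyltransferases Unigene67415 and Unigene51169 drop to 0.726 and 1.59 in S2, while chalcone synthase and dihydroflavonol reductase are still at 123.4 and 99.4. On the right every sequence is lowest in S1, which follows from the choice of sequences with higher levels in the soil. Both panels were chosen with the values known and leave out members of these branches that ran the other way.

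In the leucoanthocyanidin dioxygenase step, some sequences ran against anthocyanidin synthase. In total it had 146.3, 82.1 and 95.2 RPM in S1, S2 and S3, and its ratio of S3 to S2, 1.16 (1.03 to 1.30), fell to 0.990 and 0.978 under the rescalings. Apart from Unigene71696, its 6 members were matched to a putative enzyme of Ricinus communis, and these summed to 16.6, 39.0 and 93.8 RPM. EZ730577.1 had 5, 7 and 179 reads and an RPKM of 0.566 (0.184 to 1.32), 0.821 (0.330 to 1.69) and 19.6 (16.8 to 22.7). Unigene67853 had an RPKM of 6.97, 14.7 and 68.2, and its ratio of S3 to S2 was 4.65 (3.54 to 6.20). Of all 7 members of the step, 3 rose and 1, Unigene71696, fell in S3 against S1, against 21.0% and 13.9% of all sequences. The 6 were set apart after their values were seen. That none of the 6 fell therefore follows from leaving out Unigene71696. Unigene12026 had an RPKM of 21.5, 16.96 and 10.89, with S3 at 0.506 times S1 (0.322 to 0.783), which did not pass the limit. EZ724331.1 had 0, 82 and 110 reads, which puts S2 at least 28.3-fold and S3 at least 35.4-fold higher than S1, taking 3 reads as the limit that a count of 0 allows. Leucoanthocyanidin dioxygenase belongs to a large oxygenase family, and the substrate of these 6 was not tested.

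The acyltransferases that bear anthocyanin in their name had their lowest sums in S3. The 15 sequences matched to an acylglucose:anthocyanin acyltransferase of Clitoria ternatea summed to 283.6 RPM in S1, 334 in S2 and 176.7 in S3. EZ747599.1 was the main one, with an RPKM of 147 (139 to 154), 169 (161 to 178) and 92.7 (87.0 to 98.6), and was the second highest member in both S2 and S3. Unigene47528 fell to an RPKM of 31.7 in S3, against 98.9 in S2, and had 65.0 in S1. All 15 also carried the gene ontology function carboxypeptidase activity, the family from which acyltransferases of this kind derive.

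The other anthocyanin acyl- and malonyltransferases, 18 sequences, had 164.8, 163.8 and 97.2 RPM. Their sum in S2 against S1 had a ratio of 0.994 (0.914 to 1.08), which changed side under the rescalings (1.02 and 1.04). A pair of long sequences within them diverged. Unigene18985, a putative anthocyanin aromatic acyltransferase, had an RPKM of 80.0, 43.1 and 7.91, and its ratio of S3 to S1 was 0.0988 (0.0768 to 0.125). Unigene16539, a putative malonyltransferase, had 19.9, 47.0 and 35.7, with a ratio of S2 to S1 of 2.36 (2.02 to 2.77). Of the remaining single sequences, the putative anthocyanin permease Unigene29476, a transporter, had an RPKM of 35.0, 53.0 and 56.6, the proanthocyanidin glycosyltransferase JK153039.1 had 3.31, 2.11 and 3.20, and the anthocyanin methyltransferase Unigene40626 had 0, 5 and 1 reads.

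In the isoflavonoid branch, the reactions that build the isoflavone skeleton were higher in the soil than in the air. Isoflavone synthase, the branch point enzyme, summed to 0.724, 4.65 and 5.87 RPM in S1, S2 and S3 over 3 sequences, from 5, 31 and 42 reads. The ratio of S3 to S1 was 8.12 (3.22 to 26.3), and all 3 sequences rose in both S2 and S3 against S1. GW977964.1, matched to a hydroxyisoflavanone synthase of Lotus japonicus, had 3, 19 and 19 reads, and Unigene16511, matched to isoflavone synthase 2 of Glycine soja, had 1, 8 and 16. These levels were low: the RPKM of Unigene16511 in S3 was 6.32 (3.61 to 10.3).

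Hydroxyisoflavanone dehydratase Unigene68113, which completes the isoflavone, was expressed more strongly, with an RPKM of 17.4 in S1 (13.8 to 21.7) and 48.3 in S2 (42.0 to 55.2), with 43.8 in S3 (38.1 to 50.2). The intervals of S2 and S3 overlapped and both lay above that of S1. The methyltransferase Unigene11973, which acts on the trihydroxyisoflavanone intermediate, peaked in S2 with an RPKM of 2.57, 18.4 and 10.4. Its ratio of S2 to S1 was 7.18 (4.16 to 13.3).

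The isoflavone hydroxylases divided. Isoflavone 2'-hydroxylase, a cytochrome P450 on the way to pterocarpan defence compounds, had 1.30, 8.99 and 24.2 RPM, and its ratio of S3 to S1 was 18.6 (9.56 to 41.3). Unigene61045 had an RPKM of 0.357 (0.00904 to 1.99), 7.03 (4.23 to 10.98) and 21.1 (16.1 to 27.1), and Unigene10462 had 0.497, 4.63 and 19.7. All 3 sequences of the step rose in S2 and in S3 against S1. Isoflavone 3'-hydroxylase instead had 37.5, 21.0 and 17.1 RPM. Of the 5 sequences of this step, 1 rose and 1 fell in S2 against S1, and 1 rose and 2 fell in S3 against S1. Its main sequence Unigene1805 fell to an RPKM of 8.40 in S3, against 19.0 in S1, and JK170432.1 had 50 reads in S1 and 0 in both S2 and S3, at least 16.1-fold lower in S2 and 17.2-fold lower in S3. Those 50 reads covered 26.5% of its bases.

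The isoflavone reductases, which reduce hydroxyisoflavones, were highest in S2. The sum was 48.5, 70.6 and 42.5 RPM, with S2 at 1.46 times S1 (1.26 to 1.68). EZ734724.1, a homologue matched to soybean, had the highest level, with an RPKM of 25.2, 27.7 and 19.1, while 3 of the 8 members rose in S2 against S1 and 3 fell in S3 against S2. The sequences named hydroxy isoflavone/dihydroflavonol reductase had 19.97, 22.03 and 40.6 RPM. EZ736515.1 gave the S3 increase of that group, with an RPKM of 11.1, 5.81 and 24.4 and a ratio of S3 to S2 of 4.20 (3.04 to 5.92).

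The sugar-attaching step of the branch declined. Isoflavonoid glucosyltransferases had 58.9, 13.3 and 11.6 RPM, a ratio of S2 to S1 of 0.226 (0.178 to 0.285) and of S3 to S2 of 0.871 (0.638 to 1.19). Unigene1330 had an RPKM of 37.1 in S1 (32.5 to 42.0) and 7.45 in S2 (5.48 to 9.91), with 5.03 in S3 (3.48 to 7.03), and JK152259.1 had 22.8, 3.27 and 1.17. As for the flavonoid 3-O-glycosyltransferases, the lower level was reached by S2. Of the 13 sequences, 12 were matched to 1 enzyme of Glycyrrhiza echinata and 4 had at least 30 reads. The malonyltransferases that follow had 42.4, 42.1 and 41.4 RPM, with a ratio of S3 to S1 of 0.977 (0.828 to 1.15). Beneath that level sum, Unigene18555 rose to an RPKM of 17.2 in S3, against 6.92 in S1, and Unigene64026 fell to 4.70 in S3, against 24.3 in S1. Unigene17407 had 19.2, 20.2 and 25.5.

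The sequence EZ744056.1, named isoflavonoid regulator after a soybean entry, had the highest RPKM of all members in S3. It had 49.1 in S1 (42.4 to 56.6) and 84.6 in S2 (75.6 to 94.5), with 134.7 in S3 (124 to 146.5), and the 3 intervals did not overlap. Its ratio of S3 to S1 was 2.74 (2.32 to 3.25). The isoflavone conjugate glucosidase GW986307.1 had 6, 5 and 5 reads.

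Among the members that name no branch, flavonoid prenyltransferases, which attach isoprenoid chains, were the most dissimilar between air and soil. GW992349.1, matched like the others to Sophora flavescens, had 3, 106 and 90 reads, an RPKM of 0.960 (0.198 to 2.81), 35.1 (28.8 to 42.5) and 27.8 (22.4 to 34.2). GW990733.1 had 1, 89 and 86 reads and an RPKM of 0.231, 21.3 and 19.2. Their ratios of S2 to S1 were 36.6 (12.2 to 180.2) and 92.2 (16.1 to 3681), wide because of the few S1 reads. Unigene44261, with the same name, had 11, 27 and 0 reads, so it was at least 9.64-fold lower in S3 than in S2.

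The flavonoid glycosyltransferases of this group carried different names. The 5 matched to a UDP-glycose:flavonoid glycosyltransferase of Vigna mungo had ratios of S2 to S1 between 1.00 and 1.39 and all fell in S3, with ratios of S3 to S2 between 0.120 and 0.378. Unigene47188, at an RPKM of 153, 213.5 and 58.4, was the highest member in S2. The 3 named (iso)flavonoid glycosyltransferase had ratios of S3 to S1 between 2.03 and 2.16 in RPKM, but none of the 3 passed the limit on RPKM + 1. Both subsets were formed after the values were seen. Flavonoid methyltransferases peaked in S2, with Unigene37912 at an RPKM of 15.3, 52.6 and 16.1 and Unigene62084 at 7.47, 42.2 and 16.7. The malonyltransferase Unigene14865 had 18.6, 13.5 and 1.57, and the chalcone methyltransferase Unigene9256 had 6.75, 5.52 and 17.9.

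The order of the highest members changed from stage to stage. In S1 it was JK153418.1 (341.5), Unigene71925 (259) and then Unigene67415, Unigene47188, EZ747599.1 and Unigene51169, whose RPKM of 155, 153, 147 and 136.5 had overlapping intervals. In S2 it was Unigene47188 (213.5), EZ747599.1 (169) and the isomerases EZ755568.1 and EZ755567.1 (147 and 139.5), of which the last 2 did not differ beyond their intervals. In S3 it was EZ744056.1 (134.7), EZ747599.1 (92.7) and then EZ755568.1 and Unigene67853 (71.0 and 68.2), again with overlapping intervals. Of the 6 highest in S1, EZ747599.1 and Unigene47188 were also among the 6 highest in S3.

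The summed phenylpropanoid enzymes that supply the pathway did not follow chalcone synthase in S2 against S1. In S3 against S2 their sum declined, but less than that of chalcone synthase. Sequences annotated as phenylalanine ammonia-lyase, cinnamate 4-hydroxylase or 4-coumarate CoA ligase had 1695, 2847 and 1331 RPM in S1, S2 and S3. Of the 40 with a read, 10 rose and 0 fell in S2 against S1, 3 rose and 26 fell in S3 against S2, and 7 rose and 9 fell in S3 against S1. The sum of the supply enzymes had a ratio of S2 to S1 of 1.68 (1.64 to 1.72), against 0.367 for chalcone synthase. Its ratio of S3 to S2 was 0.4675 (0.456 to 0.479), against 0.0863 (0.0701 to 0.105) for chalcone synthase. Single supply sequences differed. Of the 18 ammonia-lyases with a read, 11 fell and 0 rose past the limit in S3 against S2. Ammonia-lyase EZ740184.1, named after its values were seen, had an RPKM of 99.1, 178 and 218.3. Its ratio of S3 to S2 was 1.23 (1.15 to 1.31).

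Sequences of the green photosynthetic apparatus were also highest in S1. Those named chlorophyll a/b binding or light-harvesting had 2995, 109.4 and 265.6 RPM in S1, S2 and S3. Of 21 with a read, 12 fell and 0 rose in S2 against S1 and 0 fell and 5 rose in S3 against S2. Over all sequences, 9.19% fell and 9.03% rose in S2 against S1, and 11.4% fell and 18.6% rose in S3 against S2. Seed storage protein sequences, of which 24 had a read, had 172.2, 305.1 and 156.0 RPM. Their part in the differences above was not tested. With 1 library each, stage, light and soil cannot be told apart.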

How the data were processed

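Poly(A) RNA of the 3 stages was sequenced on an Illumina instrument, with 1 library per stage. The deposited counts are whole reads that the authors could align to only 1 place of 1 sequence, and the deposited RPKM values are these reads scaled by the authors to the length of the sequence and the library total. The authors also deposited the percent of bases covered and the length of each sequence, in bases. The aligner was not given in the sources used here. No genome was used here, and 0 of 163 members matched the supplied gene table.

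Members were found by the words given above. Of the matching sequences, 4 were dropped by the words stilbene or resveratrol. Each was placed in 1 step by its annotation, with isoflavonoid names taken first. Ratios were computed on RPKM, and counts and medians on RPKM + 1, over sequences with a read. Named sequences were the highest of each step, the 4 largest and 4 smallest ratios of each comparison among those with an RPKM of at least 10, and members in the protein tables of the study, and others were chosen after their values were seen. Members and lists were chosen with earlier results of these data known. Alternatives were 2 rescalings of the libraries (median of ratios, factors 0.968, 0.944 and 1.11; upper quartile, 0.976, 0.929 and 1.10), a pseudocount of 0.1, limits on RPKM, reads and length, unigenes only, first names only and a limit of 3 times. The code was tested on simulated data. The tools were Python 3.11.15 with scipy 1.17.1, pandas 2.3.3, matplotlib 3.10.9 and numpy 2.4.6.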

Additional observations from a re-analysis of the deposited data

How the results depend on the processing

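No paired analysis was possible because there was only 1 library of each stage, and none could be left out. Among the ratios of named sequences, only Unigene37912 (S3 to S1, 1.05 to 0.923 and 0.933) and Unigene29476 (S3 to S2, 1.07 to 0.911 and 0.899), neither past the limit, changed side under the rescalings. In S2 against S1, the 40 higher members became 21 at an RPKM of at least 10, 26 among unigenes, 26 at 300 bases or more and 22 at a limit of 3 times, and the 23 lower became 36 with a pseudocount of 0.1, 14 among unigenes and 13 at 3 times. In S3 against S2, the 14 higher became 9, 6 and 7 at an RPKM of at least 10, among unigenes and at 3 times, and the 46 lower became 27 among unigenes and 25 at 3 times. In S3 against S1, the 39 higher became 19, 19 and 24 under those same 3 settings, and the 47 lower became 28 among unigenes. Restricting to unigenes, length or RPKM tests fewer sequences: 75, 117 and 69 to 72.

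The median log2 ratio of S3 to S2 over all members moved to -0.55 and -0.56 with the median of ratios and the upper quartile and to -1.04 at an RPKM of at least 10. In the anthocyanin branch it moved to -0.73 with the pseudocount of 0.1 and to -0.92 at an RPKM of at least 10, and in the isoflavonoid branch to -0.47 at that RPKM. For S3 to S1 the RPKM limit gave -1.08 over all members and -1.05 in the anthocyanin branch. For S2 to S1 the early median of -0.59 became 0.55 among 8 unigenes, and the anthocyanin median of 0.04 became -0.01 at an RPKM of at least 10 and -0.09 at 300 bases or more; the cause was not tested. Among all sequences at that RPKM, 8.12% rose and 10.2% fell in S2 against S1. The shares were 23.4% and 13.3% for S3 against S2. For S3 against S1 they were 25.5% and 17.6%. The counts of steps higher or lower by 2 times in summed reads stayed within 1.5 times of their main values. The same 5 ratios of single named sequences moved beyond their counting intervals under each of the 2 rescalings. They were the S3 to S2 ratios of EZ755567.1, EZ755568.1, EZ747599.1 and EZ744056.1, and the S3 to S1 ratio of EZ747599.1. Depth limits the low members: 28 of the 158 had under 10 reads over the 3 libraries.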

Other observations

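Neighbouring sequences were sought by the words naringenin, leucocyanidin, vestitone, pterocarpan and medicarpin, which gave 4 outside the members. Neighbouring enzymes under other names were not counted. Unigene59800, which that search did not find, is matched to the soybean glucosyltransferase UGT78K1, which is known to act on anthocyanidins. Its reads numbered 695 in S1, 6 in S2 and 0 in S3. The RPKM was 262.6 in S1 and 2.35 in S2, and the sequence was at least 239.7-fold lower in S3 than in S1. It was named after its values were seen.

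A pair of sequences matched to naringenin 8-dimethylallyl transferase of Sophora flavescens, a prenyltransferase of flavanones, differed from the flavonoid prenyltransferases of the same species in the report. GW958501.1 had an RPKM of 134.5, 138.7 and 36.2 and Unigene33704 had 139.4, 188.9 and 59.01 in S1, S2 and S3. Neither passed the limit in S2 against S1, and both fell in S3 against S2, with ratios of 0.261 (0.221 to 0.308) and 0.312 (0.240 to 0.403).

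Reductases at the end of the isoflavonoid route were also listed. Pterocarpan reductase EZ730204.1 fell to an RPKM of 10.9 in S3, against 35.7 in S2, and had 20.3 in S1. Vestitone reductase JK184526.1, which acts just before medicarpin in alfalfa, had 8, 14 and 8 reads.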
